A study of Mus musculus with 6 samples.

Results

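SOX transcription factors are a family of HMG box proteins, some of which direct the chondrocyte fate. Here 8 of their genes were followed by name in sorted growth plate chondrocytes. These were *Sox8* and *Sox9* (the SOXE subgroup), *Sox5*, *Sox6* and *Sox13* (SOXD), and *Sox4*, *Sox11* and *Sox12* (SOXC). They were 8 of the 23159 genes in the count table, and all 8 were among the 13728 genes that passed the filter on low counts. The 6 libraries came from 3 independent experiments, each with 1 library of label-retaining chondrocytes (LRCs) and 1 library of non-LRCs from the same sort, and the libraries of an experiment were compared as a pair.

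All 6 libraries were from 49-day-old Col2-Q mice, homozygous for each of 4 alleles: Col2a1-tTA, TRE-H2B-EGFP, Col2a1-creER and R26R-tdTomato. The controls therefore carried the same alleles and treatments as the LRCs. Doxycycline was given from P21 to P49, for 4 weeks, which stops transcription of the green histone label so that dividing cells dilute it, and tamoxifen at P46 and P47 turned on tdTomato. LRCs were the tdTomato+ cells that had kept high H2B-EGFP, and non-LRCs were tdTomato+ cells with mid to low H2B-EGFP. Both the tTA and the creER are driven by a *Col2a1* promoter, which is itself a target of SOX9, so that both gates select on the activity of that promoter. Cells negative for CD45 were pooled from several littermates, about 10000 LRCs and about 50000 non-LRCs per library. Total counts were 18943789 to 129559872 per library. The smallest library, LRCs of experiment 2, stood apart, with 1731 tested genes at 0 counts against 4 to 365 in the other libraries.

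SOX9 binds pairs of short sites in the enhancers of cartilage genes and is needed for chondrocytes to form and to keep their identity. SOX5 and SOX6, SOXD proteins without a transactivation domain of their own, bind beside it and raise the output of these enhancers. SOXC proteins are strong activators with roles in progenitor survival and in the early skeleton, and SOX8 shares much of its sequence with SOX9.

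No SOX gene of the 8 was called changed between LRCs and non-LRCs, where a call was a Benjamini-Hochberg adjusted p below 0.05 in edgeR's quasi-likelihood test with the experiment as a block. Over all genes tested, 176 of 13728 were called, or 1.28%. At an unadjusted p under 0.05, *Sox4* was higher and *Sox11* was lower in LRCs, 2 of the 8, against 18.4% of all genes. DESeq2 with the same block called 1 of the 8, *Sox4*, against 12.3% of genes, and limma-voom also called *Sox4* alone, against 9.91%. Levels are given as CPM, counts scaled by the TMM-normalized library size, and a log2 fold change above 0 means a higher level in LRCs. In libraries of pooled cells, fewer cells that express a gene and less of its RNA per cell cannot be told apart.

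*Sox9* (chr11:112782224-112787760, plus strand, GRCm38) was by far the most abundant member. Its level in experiments 1, 2 and 3 was 2280, 1445 and 2341 CPM in LRCs and 1413, 1436 and 1452 CPM in non-LRCs. The non-LRC libraries were nearly level, with a mean of 1434 ± 19.6 CPM (SD, n = 3), whereas the LRC libraries spread around a mean of 2022 ± 501 CPM (SD, n = 3). The LRC library of experiment 2 lay within the range of the non-LRCs, and the LRC libraries of experiments 1 and 3 lay above that range. The log2 CPM difference was 0.69, 0.01 and 0.69 in experiments 1, 2 and 3, and the fitted log2 fold change was 0.46 ± 0.19 (SE), with a 95% confidence interval of -0.0019 to 0.93 and an adjusted p of 0.273 (edgeR). Without experiment 2, whose LRC library was the smallest, *Sox9* was called at a log2 fold change of 0.69 and an adjusted p of 0.0407 (edgeR). In that fit 5.37% of all genes were called. *Sox9* was not called without experiment 1 (log2 fold change 0.34, adjusted p of 0.662, edgeR) nor without experiment 3 (0.37, adjusted p of 0.645, edgeR). In no experiment was *Sox9* lower in LRCs.

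*Sox8* (chr17:25565892-25570686, minus strand) was measured at 12.4, 19.8 and 13.9 CPM in LRCs and at 16.3, 15.2 and 12.0 CPM in non-LRCs. The groups overlapped and the direction differed between experiments, with log2 differences of -0.40, 0.38 and 0.21. The fitted log2 fold change was 0.06, with an interval of -0.61 to 0.74 and an adjusted p of 0.924 (edgeR). Exons of *Sox8* overlap those of 2810468N07Rik on the opposite strand, which held 1316 counts in the 6 libraries together. The study counted only uniquely assigned reads, and the strand setting of the counting is not given in the sources used here. How reads in the shared exons were handled is therefore not known.

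**Figure D1:**
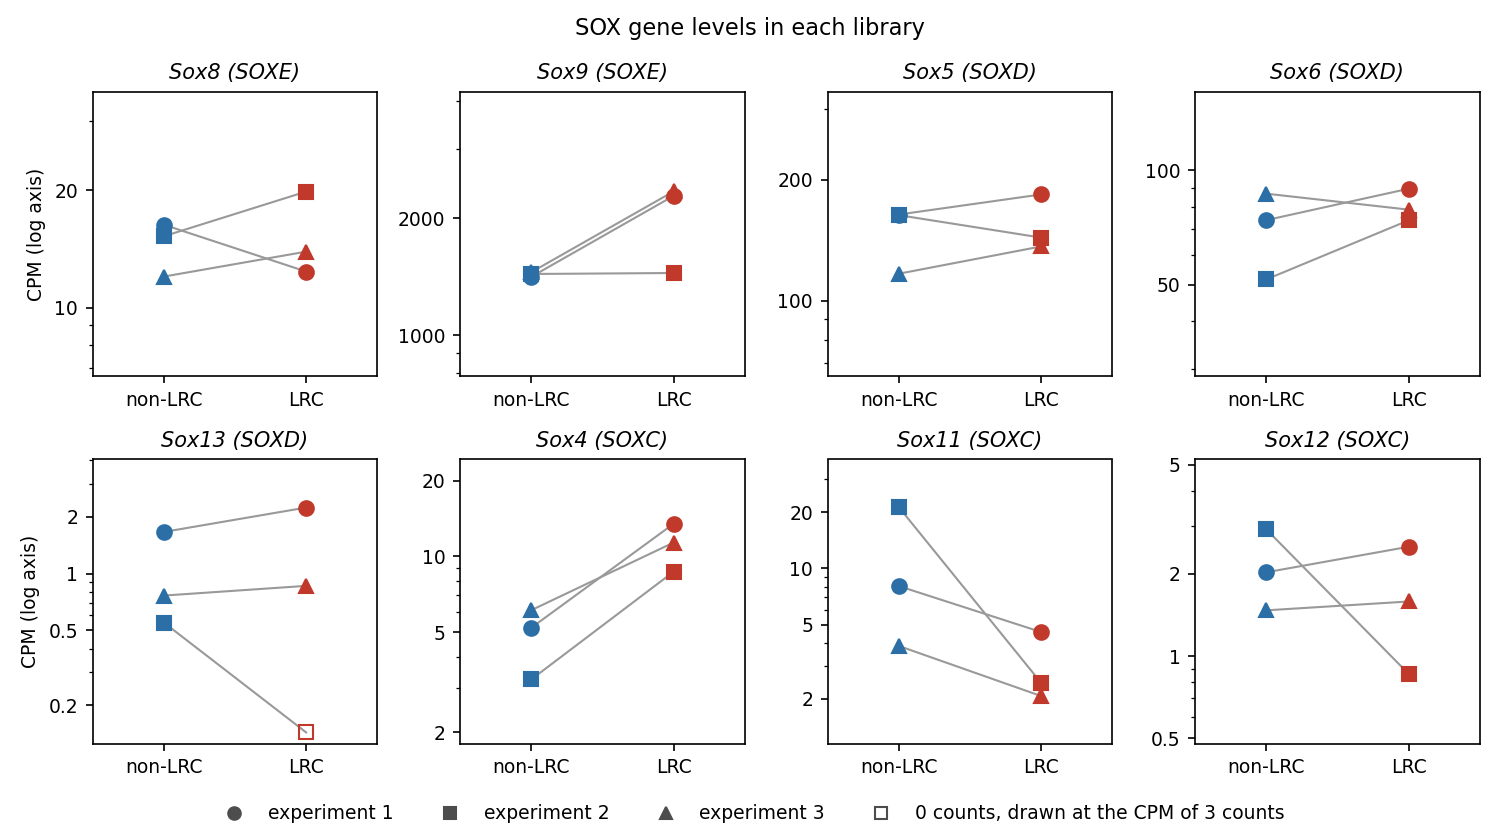
Each panel plots 1 SOX gene, with the level in CPM on a log axis and lines joining the non-LRC and LRC libraries of an experiment. *Sox4* was higher in LRCs and *Sox11* lower in LRCs in each experiment, and *Sox9* was level in experiment 2. The open square marks the 0 count of *Sox13* in the LRC library of experiment 2, drawn at 0.143 CPM.

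Of the SOXD genes, *Sox5* and *Sox6* encode the partners of SOX9 in cartilage. *Sox5* (chr6:143828425-144781977, minus strand) was measured at 184.0, 143.7 and 136.6 CPM in LRCs and 164.0, 163.4 and 116.8 CPM in non-LRCs, with overlapping groups. Its log2 fold change was 0.07, with an interval of -0.30 to 0.44 and an adjusted p of 0.843 (edgeR). Its exons overlap the opposite-strand gene Sox5os1, which is not among the genes counted. Whether reads of Sox5os1 were counted for *Sox5* is not known. *Sox6* (chr7:115470872-116038796, minus strand) was measured at 89.5, 73.8 and 78.8 CPM in LRCs and 73.9, 51.6 and 86.8 CPM in non-LRCs. These groups also overlapped, and *Sox6* was lower in LRCs in experiment 3 only, with log2 differences of 0.28, 0.52 and -0.14. The fitted value was 0.22, with an interval of -0.22 to 0.66 and an adjusted p of 0.578 (edgeR). For *Sox5* and *Sox6* the upper bounds of these intervals lie under a 2-fold difference, so the data leave room for smaller changes in either direction.

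*Sox5* had more counts than *Sox6* in every library. The ratio of their counts was 2.06, 1.95 and 1.73 in LRCs and 2.22, 3.17 and 1.34 in non-LRCs, so that the LRC values lay inside the range of the non-LRCs. The count ratio of *Sox9* to *Sox5* was 12.4, 10.1 and 17.1 in LRCs and 8.61, 8.79 and 12.4 in non-LRCs. It was higher in the LRC library of each experiment, but the groups overlapped, with LRCs of experiment 2 below non-LRCs of experiment 3.

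*Sox13*, the remaining SOXD gene (chr1:133382303-133424377, minus strand), was at a low level, with 0 counts in the LRC library of experiment 2. The LRC libraries of experiments 1, 2 and 3 held 262, 0 and 37 counts of it, and the non-LRC libraries 172, 21 and 38. In experiments 1 and 3 its level was slightly higher in LRCs, at 2.24 against 1.67 CPM and 0.861 against 0.765 CPM. In experiment 2 the non-LRC library was at 0.55 CPM, while the 0 in LRCs is compatible with at most 0.143 CPM (3 counts). The fitted log2 fold change of -0.84, with an interval of -4.46 to 2.79 and an adjusted p of 0.804 (edgeR), depends on how that 0 is treated and is no bound.

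*Sox4* and *Sox11*, both of the SOXC subgroup, had the largest fitted changes of the 8, in opposite directions. *Sox4* (chr13:28948919-28953713, minus strand) was measured at 13.5, 8.70 and 11.4 CPM in LRCs and at 5.21, 3.25 and 6.12 CPM in non-LRCs. Every LRC library was above every non-LRC library, a separation in this direction that 8.41% of all genes showed and no other member did. The separation in the other direction, shown by 10.3% of genes, was found for none of the 8. LRCs had a mean of 11.2 ± 2.40 CPM and non-LRCs 4.86 ± 1.47 CPM (SD, n = 3), and the log2 differences within experiments were 1.37, 1.41 and 0.89. The fitted log2 fold change was 1.23 ± 0.34 (SE), or 2.34-fold, with an interval of 0.40 to 2.06 and an adjusted p of 0.141 (edgeR). The adjusted p was 0.0144 in DESeq2 and 0.0328 in limma-voom, with log2 fold changes of 1.24 and 1.23. Exons of *Sox4* overlap those of the opposite-strand gene Gm26735, which is not among the genes counted. Whether reads of Gm26735 were counted for *Sox4* is likewise not known.

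*Sox11* (chr12:27334264-27342574, minus strand), which has no exon overlap with another gene, was measured at 4.56, 2.44 and 2.07 CPM in LRCs and at 8.04, 21.3 and 3.84 CPM in non-LRCs. It was lower in the LRC library of each experiment, but the groups overlapped, since LRCs of experiment 1 were above non-LRCs of experiment 3. The difference was by far the largest in experiment 2, where non-LRCs were highest, with log2 differences of -0.81, -3.11 and -0.88. The fitted log2 fold change was -1.57 ± 0.59 (SE), or 2.97-fold lower in LRCs, with an interval of -3.01 to -0.13 and an adjusted p of 0.239 (edgeR). Without experiment 2 the log2 fold change was -0.85.

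*Sox12* (chr2:152393611-152398063, minus strand), the weakest activator of the SOXC subgroup, was measured at 2.51, 0.860 and 1.58 CPM in LRCs and 2.02, 2.91 and 1.47 CPM in non-LRCs. It was slightly higher in LRCs in experiments 1 and 3 and lower in experiment 2, with log2 differences of 0.31, 0.11 and -1.72. The fitted value of -0.41 had an interval of -2.39 to 1.57 and an adjusted p of 0.826 (edgeR), which leaves room for a change of several fold in either direction. Without experiment 2 the value was 0.21 and the SE fell from 0.81 to 0.49.

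Counted over the 8 genes, *Sox4* and *Sox9* were higher in LRCs in all 3 experiments, against 20.4% of all genes, and *Sox11* was lower in all 3, against 26.0%. The count for *Sox9* includes experiment 2, where it was nearly level, with a log2 difference of 0.01. The median log2 fold change of the 8 was 0.07, against -0.10 over all genes tested. In experiment 2 alone, *Sox11* and *Sox12* had log2 differences of -3.11 and -1.72, and *Sox13* was 3.83-fold lower in LRCs if its 0 is set at 3 counts. That LRC library was the smallest and had the most tested genes at 0, and the setting allows for counting error only.

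**Figure D2:**
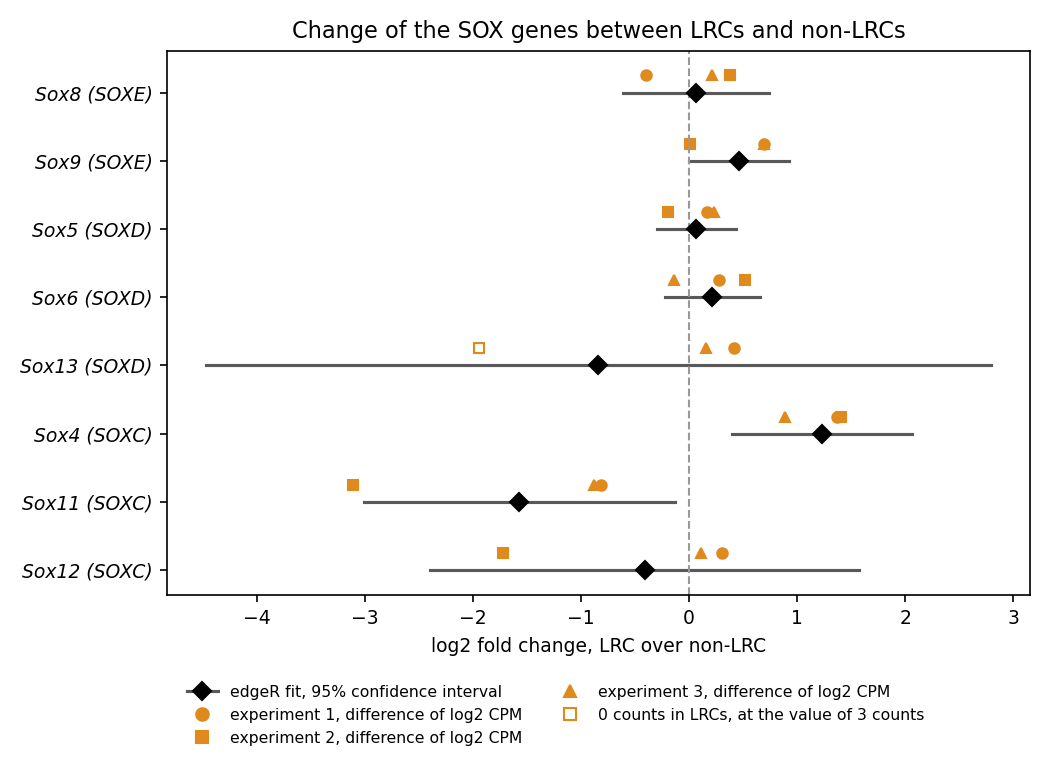
The x axis plots the log2 fold change of LRCs over non-LRCs for each SOX gene, with black diamonds and bars for the edgeR fit and its 95% confidence interval and orange symbols for the log2 CPM difference in each experiment. The interval of *Sox4* (0.40 to 2.06) and that of *Sox11* (-3.01 to -0.13) leave out 0 before adjustment for the number of genes, and experiment 2 lies to the left of the other experiments for *Sox11*, *Sox12* and *Sox13*. The open square sets the 0 count of *Sox13* at 3 counts.

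The balance of *Sox4* and *Sox11* differed between the groups in each library. The count ratio of *Sox4* to *Sox11* was 2.95, 3.57 and 5.48 in LRCs and 0.647, 0.152 and 1.59 in non-LRCs, without overlap. The ratio was noticed after the values were seen, and no test was made of it.

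The sequence upstream of the SOXC genes is given because *Sox4* and *Sox11* had the largest fitted changes of the 8, with opposite signs, and *Sox12* completes the subgroup. The 250 bases before each start were taken from RefSeq (GRCm38.p6), in which 7 of the 8 genes matched an entry, and capitals mark CCAAT or, on the other strand, ATTGG, the short motif bound by NF-Y.
Sox4 (chr13:28953700-28953949, minus strand): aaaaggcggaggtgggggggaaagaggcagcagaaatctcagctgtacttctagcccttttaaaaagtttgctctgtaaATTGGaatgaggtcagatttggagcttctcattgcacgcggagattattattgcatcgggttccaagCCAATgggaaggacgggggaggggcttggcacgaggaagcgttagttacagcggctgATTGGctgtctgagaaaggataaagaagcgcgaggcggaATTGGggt
Sox11 (chr12:27342719-27342968, minus strand): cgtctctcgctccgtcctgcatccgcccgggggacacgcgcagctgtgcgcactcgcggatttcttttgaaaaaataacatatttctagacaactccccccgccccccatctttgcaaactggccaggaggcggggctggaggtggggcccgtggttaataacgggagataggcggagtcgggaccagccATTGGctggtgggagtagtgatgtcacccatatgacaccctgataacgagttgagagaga
Sox12 (chr2:152398047-152398296, minus strand): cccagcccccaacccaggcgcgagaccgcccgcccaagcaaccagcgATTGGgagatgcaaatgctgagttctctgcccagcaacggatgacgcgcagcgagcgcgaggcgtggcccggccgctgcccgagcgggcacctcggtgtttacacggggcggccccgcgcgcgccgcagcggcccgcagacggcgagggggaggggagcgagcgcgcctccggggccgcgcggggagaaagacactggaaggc
Read 5′ to 3′ toward the start, *Sox4* held 4 matches, which began 171, 104, 47 and 8 bases before the start. *Sox11* held 1 match, 60 bases before its start, and *Sox12* held 1, at 203 bases. These starts differ from the ends of the GENCODE gene models given above. The windows of *Sox4* and *Sox12* reach into their models, and the *Sox4* match at 8 bases lies inside its model. The *Sox11* window lies wholly upstream of its model and does not adjoin it. Of 32851 mouse promoters of the same length, 33.8% held at least 1 match on either strand and 0.84% held at least 4. TATAAA, searched on both strands and found in 12.4% of promoters, was in none of these 3 windows, nor was ACAAAG, a core of SOX binding sites found in 16.5%. The GC content was 50.8% for *Sox4*, 58.0% for *Sox11* and 74.4% for *Sox12*, with a median of 52.4% over all promoters. The matches describe letters in these windows and carry no evidence of binding.

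Levels were then compared between genes per kilobase of exon, with all exons of a gene as its length. *Sox9* stood at a mean of 418 CPM per kb over the 6 libraries, rank 62 of the 12409 tested genes with a length, and made up 93.3 to 96.2% of the summed level of the 8 genes in each library. *Sox5* followed at 10.5 CPM per kb, then *Sox6* at 5.11 and *Sox8* at 4.79 CPM per kb, and those last values overlapped across libraries. *Sox4* was at 1.67, *Sox11* at 0.848, *Sox12* at 0.425 and *Sox13* at 0.235 CPM per kb, and *Sox12* and *Sox13* overlapped. *Sox11* and *Sox12* overlapped too, with LRC means of 0.364 and 0.371 and non-LRC means of 1.33 and 0.479 CPM per kb. The group means of *Sox4* and *Sox11* were 2.33 against 0.364 CPM per kb in LRCs and 1.01 against 1.33 CPM per kb in non-LRCs. The reversed order in non-LRCs rested on experiment 2, since the ratio of *Sox4* to *Sox11* per kb in the non-LRC libraries was 1.12, 0.264 and 2.76, and in LRCs 5.12, 6.19 and 9.5. The order of the 8 means was the same with the median coding transcript as length, but *Sox5* then stood at 59.9, *Sox6* at 18.9 and *Sox8* at 16.1 CPM per kb, since these genes have several transcripts.

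**Figure D3:**
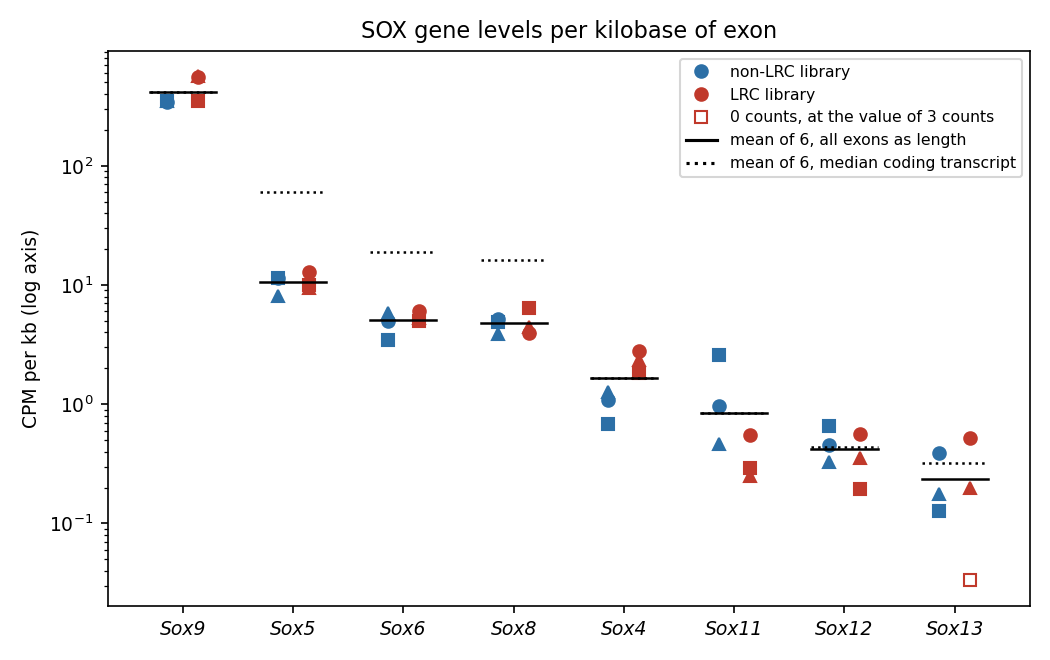
Symbols plot the level of each SOX gene in CPM per kb of exon on a log axis, with blue for non-LRC and red for LRC libraries, and circles, squares and triangles for experiments 1, 2 and 3. Solid lines are the means of 6 libraries and dotted lines the same means with the median coding transcript as length, and *Sox9* lies far above the others with either length.

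Most other SOX genes were at or near 0, with *Sox10* as the exception. Of the 11 listed, *Sox1*, *Sox3*, *Sox14*, *Sox15* and *Sox17* had 0 counts in every library, and *Sox2*, *Sox18* and *Sox30* had 1 count each. *Sox7*, known from endothelium, had 47, 0 and 15 counts in LRCs and 4, 0 and 9 in non-LRCs. *Sox21* had 22 and 19 counts in the non-LRC libraries of experiments 1 and 2 and 0 elsewhere. *Sox10*, the SOXE gene of neural crest and glia, had 8, 43 and 78 counts in LRCs and 82, 42 and 54 in non-LRCs, or means of 1.31 and 0.993 CPM, close to those of *Sox13*, with a log2 fold change of -0.38 and an adjusted p of 0.905 (edgeR).

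Genes downstream of SOX9 and SOX5/SOX6 in cartilage lay mostly on the other side of 0 from *Sox9*. Of 20 listed and tested, 1 was called lower in LRCs and none higher, and 18 had a fitted value below 0, against 56.0% of all genes. Of the 20, 16 were lower in all 3 experiments, against 26.0% of all genes. The median log2 fold change was -0.52, against -0.10 over all genes. At an unadjusted p under 0.05, 12 were lower and 1 was higher, against 9.53% and 8.89% of all genes. DESeq2 called 9 lower and 1 higher, against 6.15% and 6.16% of genes, and limma-voom 10 lower and 1 higher, against 4.69% and 5.22%. No test was made of the list as a whole. The gene called was *Mia*, a small secreted cartilage protein, which fell by 1.08 ± 0.14 on the log2 scale (SE), with an adjusted p of 0.0375 (edgeR) and differences of -1.25, -0.96 and -1.03 in the 3 experiments. *Mia* was not called without experiment 1 (log2 fold change -1.0, adjusted p of 0.1496, edgeR) nor without the block (-1.05, adjusted p of 0.427), at about the same fold.

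The 3 most abundant of these genes were not called. *Col2a1*, the main collagen of cartilage, averaged 126227 CPM over the LRC libraries and 134437 CPM over the non-LRC libraries, and its log2 fold change of -0.18 (adjusted p of 0.709, edgeR) became 0.06 without experiment 2. *Col9a3*, a chain of the collagen on the surface of these fibrils, had a log2 fold change of -0.57 and an adjusted p of 0.127 (edgeR). *Cnmd*, which encodes the cartilage protein chondromodulin, had -0.50 and 0.180 (edgeR), and DESeq2 and limma-voom called both *Col9a3* and *Cnmd* lower. Those tools also called *Matn1* and *Matn3*, matrilins of the cartilage matrix, and *Hapln1*, the link protein that ties aggrecan to hyaluronan, whose edgeR log2 fold changes were -0.95, -0.83 and -0.74. *Acan*, aggrecan itself, was at -0.43 with an interval of -0.87 to 0.0024. These 4 genes were named after their values were seen. *Creb3l2*, a membrane-bound factor that supports secretion of matrix, was the member at an unadjusted p under 0.05 in the higher direction, with a log2 fold change of 0.58 and an adjusted p of 0.151 (edgeR).

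**Figure D4:**
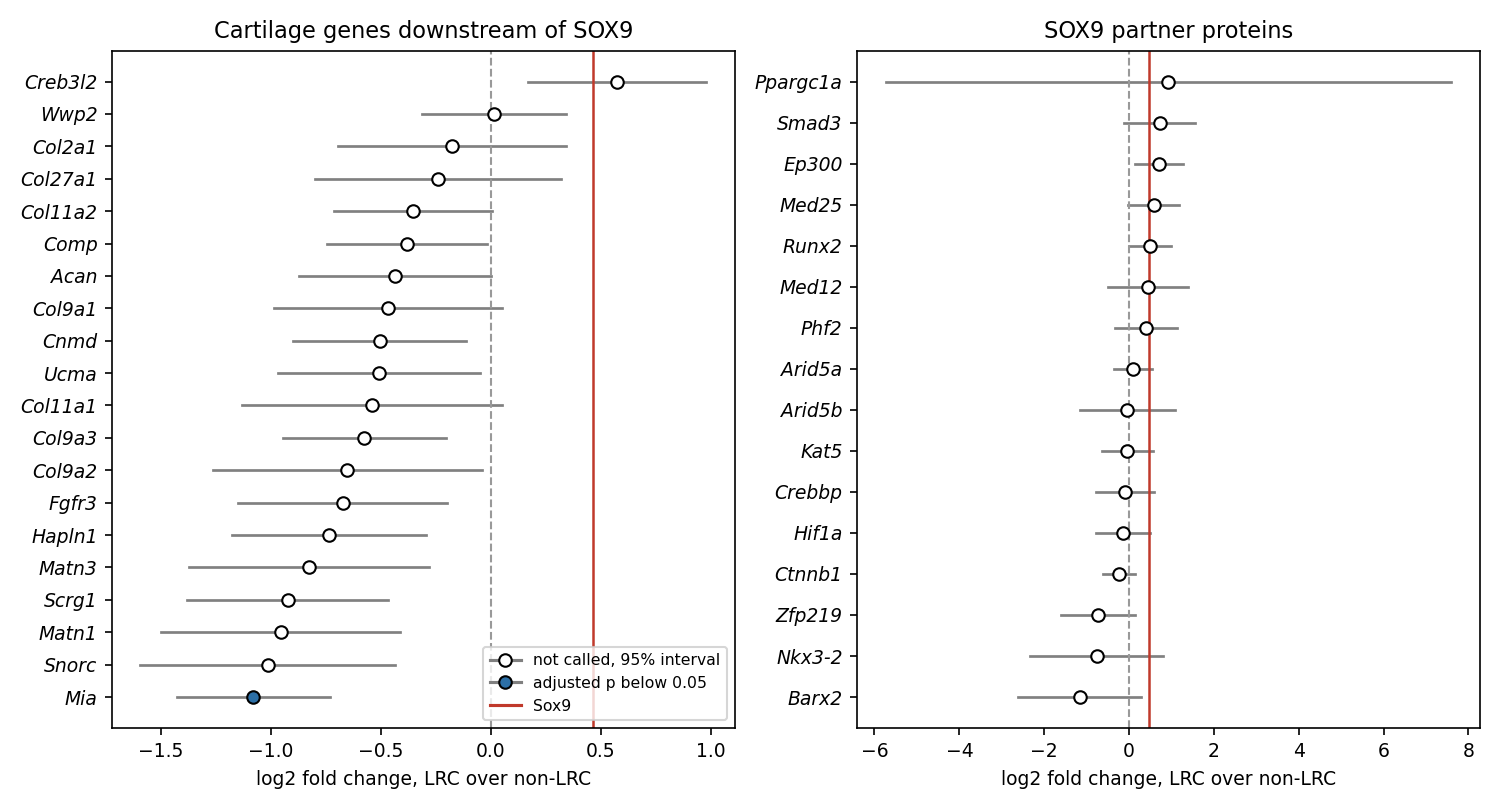
Points and bars plot the edgeR log2 fold change of LRCs over non-LRCs with its 95% confidence interval for 20 cartilage genes downstream of SOX9 on the left and 16 partner proteins and modifiers on the right. The red line marks *Sox9* at 0.46, the filled point marks *Mia*, and 18 of the 20 downstream genes lie below 0, while the partners lie on both sides.

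Partner proteins and modifiers of SOX9 lay on both sides of 0. Of 16 listed and tested, 0 were called in edgeR, 8 were fitted higher and 8 lower in LRCs, and the median log2 fold change was 0.03. At an unadjusted p under 0.05, 2 were higher and 0 lower, against 8.89% and 9.53% of all genes, while DESeq2 called 0 and limma-voom 1, *Ep300*. The 2 were *Ep300*, a histone acetyltransferase that acts as a coactivator, with a log2 fold change of 0.71 and an adjusted p of 0.188 (edgeR), and *Runx2*, the factor of hypertrophy and bone, with 0.50 and 0.268 (edgeR). *Ctnnb1*, which encodes β-catenin, had -0.23 and 0.469 (edgeR), and *Hif1a*, the oxygen-responsive factor, had -0.15 and 0.804 (edgeR). *Ep300* and *Creb3l2* were named after their values were seen.

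Markers of other chondrocyte states and cell types moved with the groups beside these SOX values, in a test that called 0.903% of all genes higher and 0.379% lower in LRCs. At an unadjusted p under 0.05 in that test, the shares of all genes were 8.89% higher and 9.53% lower. DESeq2 called 6.16% higher and 6.15% lower, and limma-voom 5.22% and 4.69%. The resting zone list had 4 of 5 genes called higher in LRCs (*Pthlh*, *Gas1*, *Spon1* and *Wif1*), and its summed level was 1761 to 2058 CPM in LRCs against 361 to 505 CPM in non-LRCs. The paper named all 5 as higher in LRCs from these same libraries, with *Gas1*, *Spon1* and *Wif1* as new markers. The values of this list are therefore no independent readout. From the same libraries the paper also named *Prg4* as higher in LRCs, and *Ihh*, *Col10a1*, *Mef2c*, *Pth1r* and *Sp7* as higher in non-LRCs. The values of those genes in the other lists are no independent readout either. The superficial articular and synovial list had 5 of 10 called higher (*Prg4*, *Cilp*, *Thbs4*, *Clu* and *Gdf5*), at 2308 to 3735 CPM against 366 to 712 CPM, and DESeq2 and limma-voom each called 8. By in situ hybridization, the paper found *Prg4* RNA at a low level in the resting zone itself, far fainter than at the articular surface. It also reported that nearly all tdTomato+ cells released by its digestion came from the growth plate. That share was over all tdTomato+ cells and was not given for LRCs alone. Of 10 hypertrophic markers, 3 were called lower (*Mef2c*, *Panx3* and *Pth1r*), with a sum of 1011 to 2052 CPM in LRCs and 1488 to 3749 CPM in non-LRCs, and DESeq2 called 7 lower and limma-voom 5. Of 9 osteoblast markers, *Col1a1* was called higher in LRCs and none lower, while 5 were fitted lower and the median log2 fold change was -0.48. At an unadjusted p under 0.05, 3 osteoblast markers were lower (*Bglap*, *Bglap2* and *Sp7*) and 2 higher (*Col1a1* and *Runx2*). DESeq2 called those 3, named after their values were seen, lower, while limma-voom called only *Bglap* and *Bglap2* lower. Both tools called *Col1a1* higher. *Sp7* and *Ibsp* are in the hypertrophic list as well. Whether cells of these states or types had a part in the values of *Sox4*, *Sox9* and *Sox11* was not tested.

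None of the markers from outside the skeleton was called in edgeR. Leukocyte and erythroid markers, of which 6 of 11 were tested, summed to 8.97 to 26.4 CPM in LRCs and 12.1 to 22.6 CPM in non-LRCs. Endothelial markers, with 3 of 8 tested, summed to 2.37 to 6.02 CPM and 2.65 to 3.46 CPM, with *Cdh5*, *Kdr* and *Emcn* at 0 in every library. Skeletal muscle markers, with 3 of 8 tested, summed to 11.6 to 25.2 CPM and 23.4 to 41.9 CPM. The Schwann cell and glial list summed to 454 to 522 CPM in LRCs and 563 to 852 CPM in non-LRCs, with *Foxd3* at 0 in every library and most of the sum in *Pmp22* and *S100b*, which chondrocytes also express. At an unadjusted p under 0.05, 1 leukocyte or erythroid marker, 1 muscle marker, 1 glial marker and 0 endothelial markers were lower in LRCs, and 0 in these 4 lists were higher. Over all genes, 9.53% were lower and 8.89% higher by that rule. DESeq2 called 1 erythroid marker lower and limma-voom 1 muscle marker lower, against 6.15% and 4.69% of all genes. Neither tool called an endothelial or glial marker.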

How the data were processed

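RNA was measured in 6 libraries, 3 of LRCs and 3 of non-LRCs, grouped and numbered by experiment as the sample labels give them. According to the methods of the study, complementary DNA was amplified, sequenced as single-end reads, aligned to mm10 (GRCm38) with TopHat2 2.0.13 and Bowtie2 2.2.1 and counted per gene with HTSeq from uniquely assigned reads. The gene annotation and strand setting are not given in the sources used here. The authors deposited raw counts of reads per gene, used for all tests. The authors also deposited a normalized signal (each count over its library's DESeq2 size factor) and log2 values from the rlog transformation, both used only for checks.

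Counts were fitted in R 4.3.3 with edgeR 4.0.16 (TMM, filterByExpr with minimum count 10 and total 15, quasi-likelihood test with prior count 0.125, Benjamini-Hochberg adjustment over 13728 genes) and the experiment as a block, as the study used a paired model. Log2 CPM used a prior count of 2. Deviations from group means of paired libraries correlated across genes with r of 0.197, 0.288 and 0.336 in experiments 1, 2 and 3. Alternatives used limma 3.58.1 and DESeq2 1.42.0. The code was checked on simulated data.

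The SOX genes, the lists and the tests were chosen with earlier results of these data known. Named genes were the SOX genes with a count, the called genes of each list, and, for the downstream and partner lists, the 3 with the highest mean CPM. Gene models were from GENCODE vM21. Since reads without molecular identifiers are not independent molecules, the limit given for a count of 0 covers counting error only. With cells pooled from littermates and the experiment as a block, p-values measure how the difference between LRCs and non-LRCs varied over 3 pairs of pools.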

Additional observations from a re-analysis of the deposited data

How the results depend on the processing

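Over 10 alternatives, *Sox4* stayed higher in LRCs (log2 fold change 1.14 to 1.42, adjusted p 0.0144 to 0.552) and *Sox11* lower (-2.01 to -0.85), and *Sox9*, *Sox5* and *Sox6* stayed above 0. Of 79 refits of the 8 genes, 69 kept direction and side of the threshold, 3 gained a call and 7 changed sign. Without the replicate block, 1 gene of all tested was called in place of 176, *Sox13* was 0.07 and *Sox10* 0.39. DESeq2 called 1692 genes, of which 1 was a member of the 8, *Sox4* (1.24). With limma-voom 1361 were called, again with 1 of the 8, *Sox4* (1.23), and *Sox8* was -0.06, *Sox12* 0.01 and *Sox13* 0.17. With at least 10 counts in every library 751 were called, and *Sox13* was not fitted. Leaving out 1 experiment at a time gave 35 to 782 called genes (35 without experiment 1 and 782 without experiment 2) and 0 to 1 of the 8, *Sox9* without experiment 2. The log2 fold change then ranged from 0.34 to 0.69 for *Sox9*, -0.10 to 0.29 for *Sox8*, -0.82 to 0.21 for *Sox12*, -2.11 to 0.31 for *Sox13*, -1.27 to 0.81 for *Sox10*, -0.29 to 0.06 for *Col2a1* and -0.39 to 0.22 for *Hif1a*. Of 209 refits of the other named genes, 183 kept direction and side of the threshold, 18 lost and 4 gained a call and 4 changed sign. The causes of these shifts were not tested. At its depth, the 0 count of *Sox13* in LRCs of experiment 2 allows up to 0.143 CPM.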

Other observations

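The genes whose log2 CPM followed each SOX gene most closely over the 6 libraries were named by rule, among 7824 genes with a mean of at least 10 CPM, as a description in which depth, library and group are shared. For *Sox4* these were *Smarcc2* (Pearson r of 0.997) and *Smoc2* (0.994), for *Sox9* *Nkd2* (0.991) and *Gjc3* (0.986), and for *Sox11* *Ryk* (0.984) and *Rars* (0.979). For *Sox5* they were *Tlk1* (0.982) and *Gng2* (0.972), and for *Sox6* *Abcf3* (0.982) and *Ewsr1* (0.980). For *Sox8* they were *Tmem185b* (0.989) and *Dhx9* (0.979), for *Sox12* *Usp25* and *Hspa4* (0.977 each), and for *Sox13*, with 0 counts in one library, *Rufy2* (0.998) and *Tcof1* (0.997).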
